A study of Homo sapiens with 267 samples.

Results

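K562 cells, a long-established line from a human chronic myeloid leukaemia, depend on the BCR-ABL fusion kinase and express embryonic and fetal globins. Described here are 2 lots of this line that were each sequenced as single cells on the C1 microfluidic system. One lot, labelled passage 90 to 92, was stained with Hoechst 33342 (2 µM, 20 minutes) and propidium iodide (3.75 µM) and received no drug by its labels. The other, labelled passage 20 to 22, was the untreated CellTracker Green arm (1 µM, 30 minutes) of the run whose CellTracker Orange cells carry an imatinib label. Libraries were chosen by the run and stain in their labels, and those with more than 70% of reads in their 500 most abundant genes or with 10000 or more detected genes (more than 2 reads) were left out. This kept 77 of 96 Hoechst libraries and 48 of 51 Green libraries, together 125 of the 267 samples of the series.

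The passage label, the stain, the run, the sequencing instrument and its read length all differed between the lots. By the study's methods, cells that took up the dead-cell stain were sequenced in the Hoechst experiment and left out in the other, and fixed cells were stored longer in the Hoechst experiment. None of these can be separated from the lot, so their parts in any difference cannot be told apart. Each lot is 1 batch of cells of 1 experiment, captured fresh and again after storage of fixed cells. Its libraries come from that batch and are not replicates. No test between the lots was therefore possible, no p-value is given, and every difference below is a description of these libraries. Both groups mix freshly captured cells with cells fixed with the cross-linker DSP, and the labels do not say which library is which. The study also sequenced bulk samples of many cells together with the single cells of each experiment. The labels do not mark these either, so some may remain among the kept libraries. For comparison, the 30 kept of the 36 CellTracker Green libraries with counts of the run with a benzene arm, also untreated and also labelled passage 20 to 22, show how far a pair of runs of one passage label can differ. Values against this group share the Hoechst libraries with the main comparison and are given side by side.

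Depth was similar, between 50358 and 2043351 reads on genes in the Hoechst libraries (median 1288735) and between 722407 and 1597836 in the Green libraries (median 1216634). The median number of detected genes was 7397 in the Hoechst run, 8052 in the Green libraries and 5957 in those of the benzene run. Mitochondrially encoded genes took a median of 12.2% of reads in the Hoechst run against 6.35%, and 10 Hoechst libraries and 0 Green libraries were above 20%. Of 15 markers of K562, 14 passed the detection filter and KIT did not. Between the Hoechst run and the Green libraries 11 were within 2-fold. LMO2 was 2-fold or more higher in the Hoechst run, and HBZ and RHAG were lower. GATA1, the master regulator of red cell genes, was at 437 counts per 1000000 reads on genes (CPM) in the summed Hoechst libraries and 509 in the Green libraries, and PRAME, a tumour antigen, was at 3235 and 3414. Of 9 markers of other cell types that were found in the table, MPO, CD14, CD3E, MS4A1 and COL1A1 did not pass the detection filter and 4 did. PTPRC (82.2 against 66.4 CPM), EPCAM (49.5 against 34.2) and LYZ (20.8 against 34.01) were within 2-fold, and 1 was 2-fold or more higher.

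The lots were told apart by 4 genes, which were picked as markers from these same libraries, so that their values are a description only. LAPTM5 encodes a lysosomal membrane protein of blood cells, and DLK1 encodes a membrane protein of the Notch family made from an imprinted locus. GABRE encodes the epsilon subunit of the GABA-A receptor, and SLC6A8 encodes the creatine transporter. Promoter sequences (250 bases before and 50 after the gene start, RefSeq, GRCh38.p14) are shown for LAPTM5, GABRE and SLC6A8, which set the lots apart, for H19 as the imprinted gene with the largest difference, and for FOS and HBD as the lowest genes in the Hoechst run. DLK1 had no entry. Each is written 5′ to 3′ on the gene's strand, and capitals mark every CG dinucleotide, the sequence at which DNA methylation mostly occurs. The regions are chr1:30757725-30758024 on the minus strand, chrX:151974627-151974926 on the minus strand, chrX:153687676-153687975 on the plus strand, chr11:2001217-2001516 on the minus strand, chr14:75278578-75278877 on the plus strand and chr11:5234434-5234733 on the minus strand.
LAPTM5: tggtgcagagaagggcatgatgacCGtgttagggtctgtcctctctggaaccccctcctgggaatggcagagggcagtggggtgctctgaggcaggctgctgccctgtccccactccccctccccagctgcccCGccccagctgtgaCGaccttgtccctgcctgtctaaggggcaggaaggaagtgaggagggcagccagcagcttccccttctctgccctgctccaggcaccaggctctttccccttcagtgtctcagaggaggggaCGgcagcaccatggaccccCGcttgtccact
GABRE: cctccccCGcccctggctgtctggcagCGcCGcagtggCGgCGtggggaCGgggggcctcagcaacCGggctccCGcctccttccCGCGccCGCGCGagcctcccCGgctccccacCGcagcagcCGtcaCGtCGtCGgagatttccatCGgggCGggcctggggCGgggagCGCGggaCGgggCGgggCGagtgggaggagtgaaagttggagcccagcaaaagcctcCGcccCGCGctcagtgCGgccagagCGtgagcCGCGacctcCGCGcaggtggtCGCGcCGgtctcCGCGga
SLC6A8: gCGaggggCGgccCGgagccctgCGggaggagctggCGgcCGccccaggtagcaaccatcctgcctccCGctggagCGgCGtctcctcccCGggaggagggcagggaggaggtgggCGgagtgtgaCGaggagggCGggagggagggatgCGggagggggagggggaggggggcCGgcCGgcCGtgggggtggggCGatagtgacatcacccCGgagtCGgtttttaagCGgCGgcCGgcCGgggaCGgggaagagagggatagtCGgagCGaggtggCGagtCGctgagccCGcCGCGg
H19: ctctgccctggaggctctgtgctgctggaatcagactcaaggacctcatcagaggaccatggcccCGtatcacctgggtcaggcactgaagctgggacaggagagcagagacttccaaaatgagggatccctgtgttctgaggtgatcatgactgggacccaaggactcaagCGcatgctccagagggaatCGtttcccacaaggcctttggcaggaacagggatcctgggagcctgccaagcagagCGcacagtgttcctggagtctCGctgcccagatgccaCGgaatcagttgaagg
FOS: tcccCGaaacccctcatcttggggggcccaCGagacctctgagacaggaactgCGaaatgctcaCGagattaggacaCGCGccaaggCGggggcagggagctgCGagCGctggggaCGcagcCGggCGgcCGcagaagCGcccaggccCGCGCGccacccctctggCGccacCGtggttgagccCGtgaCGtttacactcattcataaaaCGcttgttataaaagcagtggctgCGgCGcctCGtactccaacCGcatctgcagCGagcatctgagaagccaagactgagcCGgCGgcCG
HBD: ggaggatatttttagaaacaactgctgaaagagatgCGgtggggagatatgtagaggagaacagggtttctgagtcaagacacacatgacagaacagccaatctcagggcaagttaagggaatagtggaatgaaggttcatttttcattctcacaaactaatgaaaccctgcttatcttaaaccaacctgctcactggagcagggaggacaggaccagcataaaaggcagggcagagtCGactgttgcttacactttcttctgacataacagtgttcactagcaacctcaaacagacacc

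These promoters were of different kinds. GABRE held 41 CG dinucleotides, SLC6A8 32 and FOS 30, while H19 held 6, LAPTM5 5 and HBD 2, against a median of 14 over 27305 promoters of the same length. The letters AGATAA, a form of the site bound by GATA factors, were searched on both strands and occurred in HBD but in none of the other 5, and in 10.5% of all promoters. Over protein-coding genes that were 4-fold or more higher in the Hoechst run the median was 28 CG dinucleotides (327 of 415 genes with a promoter). The medians were 25 for genes 4-fold or more lower (119 of 147) and 27 for genes within 2-fold (5270 of 6320).

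LAPTM5 (ENSG00000162511, GRCh37 chr1:31205316-31230621) was at 468 CPM in the summed Hoechst libraries (95% Poisson interval 464 to 472, which covers counting error only) and 31.8 CPM in the Green libraries (30.4 to 33.3). Single Hoechst libraries ranged from 4.01 to 1305 CPM with a median of 397, and single Green libraries from 0 to 236 with a median of 3.07. The groups overlapped at their edges, but 53 of 77 Hoechst libraries were above every Green library and all 77 were above the Green median. The gene was detected in 77 of 77 Hoechst libraries and 26 of 48 Green libraries (54.2%, exact 95% binomial interval 39.2 to 68.6). After thinning each library to 500000 reads, which left out 2 Hoechst libraries, they were 74 of 75 (98.7%) and 24 of 48.

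DLK1 (ENSG00000185559, chr14:101192042-101204561) was 14.53-fold higher, at 629 against 43.3 CPM. Hoechst libraries ranged from 1.85 to 1967 CPM (median 540) and Green libraries from 0 to 289 (median 9.61). The Hoechst run held 58 libraries above every Green one. SLC6A8 (ENSG00000130821, chrX:152953381-152962043) was at 482 against 55.96 CPM, with library medians of 332 and 14.6 and highest values of 2144 and 276. It was detected in 76 of 77 and 34 of 48 libraries. GABRE (ENSG00000102287, chrX:151121596-151143152) was the least distinct of the 4, at 299 against 58.9 CPM with highest single values of 1678 and 550, and only 10 Hoechst libraries lay above all Green ones. In the Green libraries of the benzene run the same genes were at 45.2 (LAPTM5), 70.03 (DLK1), 45.4 (SLC6A8) and 24.7 CPM (GABRE), so that all 4 were low in both passage 20 to 22 runs. For LAPTM5, 80.1% of the benzene run reads came from 1 library.

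All 4 markers were detected together in 75 of 77 Hoechst libraries, and the remaining 2 showed 3 of them. In the Green libraries 7 of 48 had all 4, 17 had 3, 13 had 2, 10 had 1 and 1 had none. None of the 30 Green libraries of the benzene run had all 4. Within the Hoechst run the markers did not follow each other closely from cell to cell, with Spearman coefficients between 0.04 for LAPTM5 with SLC6A8 and 0.25 for DLK1 with GABRE over 77 libraries of unequal depth.

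**Figure D1:**
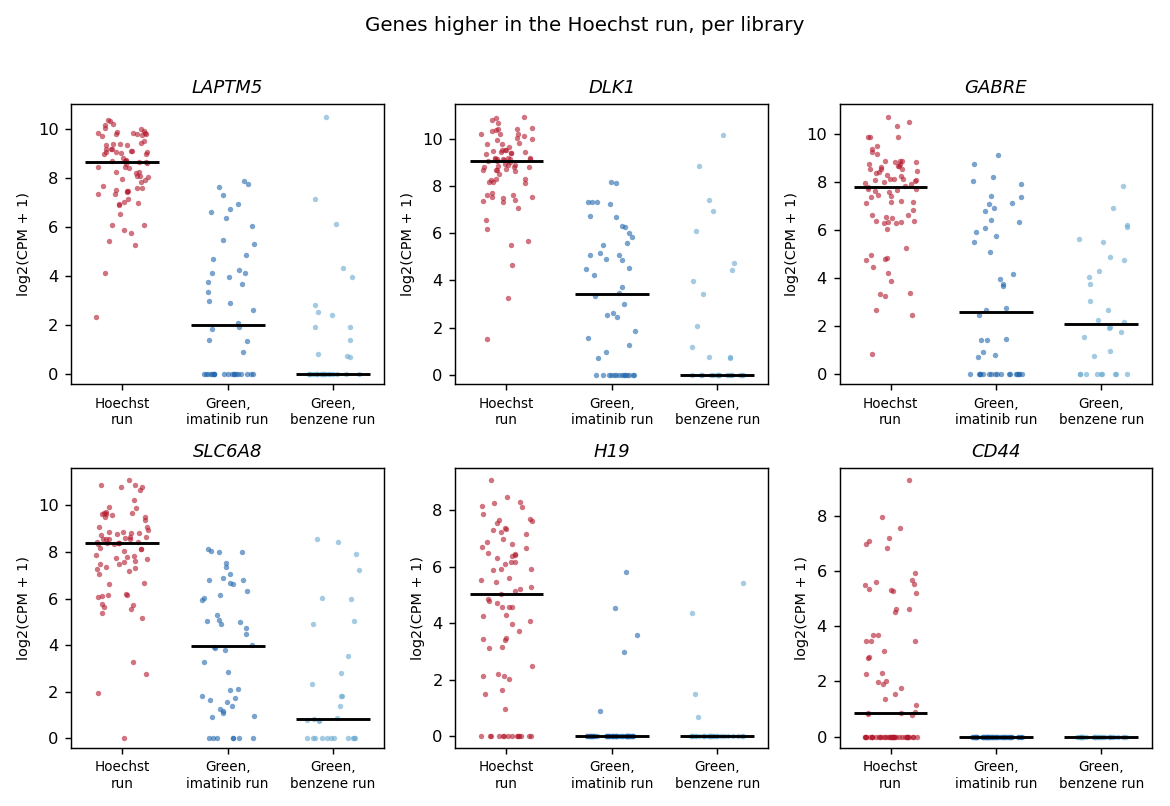
Each point is 1 library, with its log2(CPM + 1) on the vertical axis and its group on the horizontal axis; black lines are group medians. LAPTM5, DLK1 and SLC6A8 lie high in nearly all Hoechst libraries, H19 in 60 of 77 and CD44 in 34 of 77. CD44 is at 0 in every kept Green library of both runs.

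Across the transcriptome, 11378 genes passed the detection filter (20% or more of the libraries of one of the groups), and the ratio of summed CPM (with 1 CPM added to each) was taken for each of them. In the Hoechst run 2360 genes (20.7%) were 2-fold or more higher than in the Green libraries and 1475 (13%) were 2-fold or more lower. At 4-fold the numbers were 542 (4.76%) and 200 (1.76%). Genes past 2-fold were higher in 61.5% of cases with totals as the scale, in 51.9% with TMM factors, in 47.3% with DESeq2 size factors and in 31.6% with the mean of log2(CPM + 1) over libraries, and these scales move the median of all genes (log2) from 0.14 to −0.003, −0.07 and −0.22. Against the benzene run Green libraries, 3194 of the same genes (28.1%) were 2-fold or more higher and 1343 (11.8%) lower, and 1093 (9.61%) and 249 (2.19%) were past 4-fold. The 2 Green groups, which share stain and passage label, differed from each other to a similar extent: 1381 genes (12.1%) were 2-fold or more higher in the benzene run and 2292 (20.1%) lower, with 314 (2.76%) and 679 (5.97%) past 4-fold. A 2-fold ratio by itself therefore does not set the Hoechst lot apart, and where 3 CPM values follow a gene below they are for the Hoechst run, the Green libraries of the imatinib run and those of the benzene run. A gene that passed the filter through 1 group only was detected more often there. This favours a ratio in that direction but does not fix it, since GAD1 passed through the Hoechst run alone and was lower there (8.58 against 17.5 CPM). Among the 9565 genes detected in 20% or more of the libraries of both groups, 1705 (17.8%) were 2-fold or more higher and 1107 (11.6%) lower, and 25.5% and 11.3% were so against the benzene run. For the lists in which several of the members passed in this way, counts over the members detected in both groups, without the 4 markers, are given as well.

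Of the 542 genes 4-fold or more higher, 415 were protein-coding, 69 were long non-coding (12.7% against 5.68% of all genes tested) and 33 were pseudogenes. Of the 200 genes 4-fold or more lower, 147 were protein-coding, 15 were long non-coding and 31 were pseudogenes (15.5% against 8.98%).

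The 15 protein-coding genes with the highest ratios were P2RX1, EPHB6, IL23A, ELOVL7, ADM2, ITGA2B, CD44, GPRC5C, TMEM158, PAX6, VEGFA, ATP2A3, DMBX1, FYB1 and ZC3H6, with log2 ratios from 4.04 to 5.14. Several encode surface proteins: P2RX1 is an ATP-gated channel of platelets, EPHB6 a kinase-dead Eph receptor, ITGA2B the platelet integrin alpha IIb and CD44 the hyaluronan receptor. Most were present in part of the cells only. P2RX1 (ENSG00000108405, chr17:3799886-3819770) was at 49.6 CPM in the Hoechst run, 0.436 in the Green libraries and 8.46 in those of the benzene run, and was detected in 31 of 77, 2 of 48 and 6 of 30 libraries. Its Hoechst values ran from 0 to 852 with a median of 0.714, and 22.9% of its reads came from 1 library.

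CD44 (ENSG00000026508, chr11:35160429-35253949) had reads in the Hoechst run only, among the kept libraries of these 3 groups. Its 2191 reads in the Hoechst run (22.2 CPM) came from libraries between 0 and 624 CPM with a median of 0.817, and it was detected in 34 of 77. Not 1 read was counted in 48 Green libraries or in the 30 of the benzene run, which makes the Hoechst run at least 442-fold and at least 304-fold higher when 3 reads over the group are taken as the limit. This holds for the kept libraries only: of those left out for many genes, the 5 of the Hoechst run were at 41.1 CPM when summed, the 2 of the imatinib run at 1.49 and the 1 of the benzene run at 0.859. Genes on the other strand overlap CD44, and the counts were not stated to use strand. ELOVL7, a fatty acid elongase, likewise had 0 reads in the Green libraries and 23.8 CPM in the Hoechst run, but it was at 6.66 CPM in the benzene run, where 1 library held 99.3% of the reads. EPHB6 (ENSG00000106123, chr7:142552823-142568847) was at 140, 3.49 and 1.85 CPM and was detected in 60 of 77, 4 of 48 and 1 of 30 libraries.

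TMEM158, a gene first described as induced by RAS, was at 43.1, 1.17 and 1.99 CPM. Its Hoechst values ran from 0 to 194 CPM with a median of 26.95, and 60 of 77 Hoechst libraries were above the highest Green library (8.41). PAX6, a transcription factor of the eye and brain, was at 40.6, 1.09 and 0.170 CPM. FYB1, an adaptor of T cells and platelets, was at 195, 9.53 and 56.3 CPM. IL23A, a cytokine subunit, was as high in the benzene run (80.2 CPM) as in the Hoechst run (84.1), and only the imatinib run was low (1.81). Of the 15 genes 14 were also 2-fold or more higher than in the benzene run, where 28.1% of all genes were. The 15 were picked by a ratio that holds the same Hoechst values, which favours this count. It is therefore a description and no separate support. P2RX1, EPHB6, ITGA2B, CD44 and ELOVL7 also passed the detection filter through the Hoechst run alone.

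**Figure D2:**
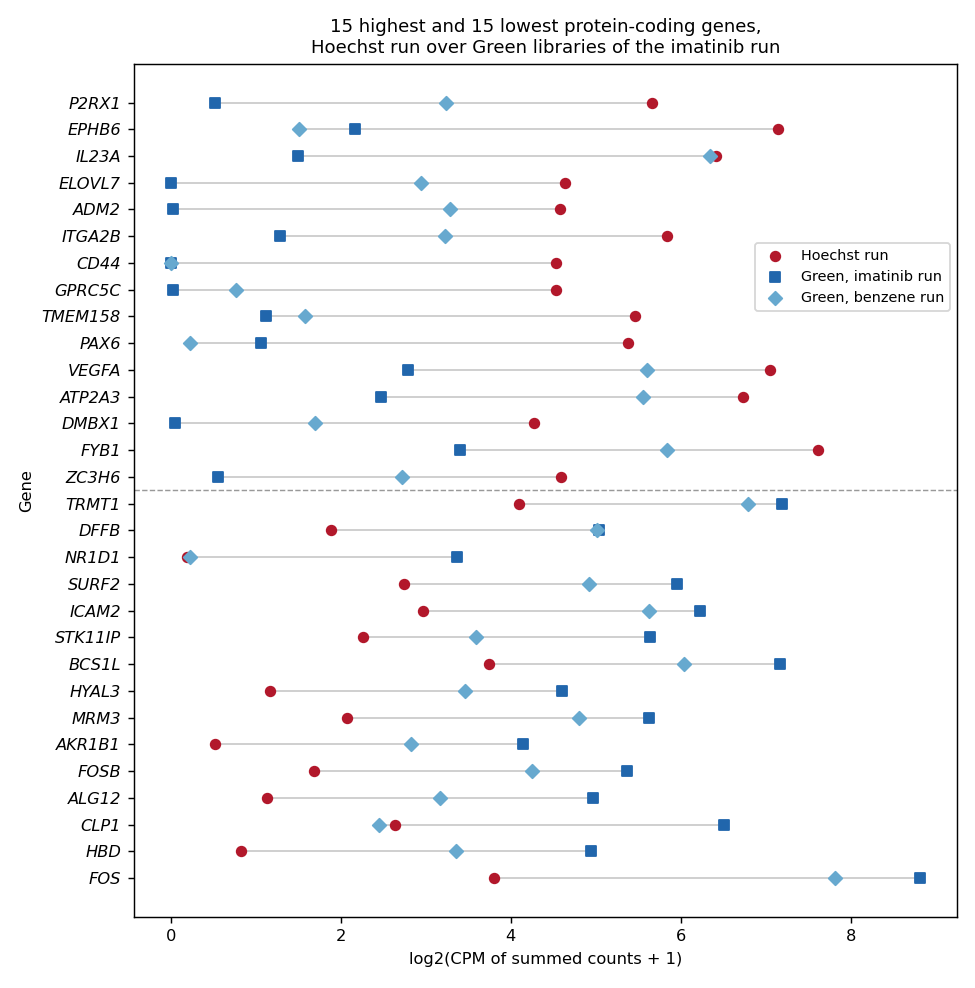
For the 15 protein-coding genes with the highest and the 15 with the lowest ratio of the Hoechst run over the Green libraries of the imatinib run, the horizontal axis gives log2(CPM of summed counts + 1) in the Hoechst run (circles), the Green libraries of the imatinib run (squares) and those of the benzene run (diamonds). CD44, EPHB6 and TMEM158 are low in both Green groups, while IL23A and CLP1 lie in the benzene run close to their Hoechst value.

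At the other end were FOS, HBD, CLP1, ALG12, FOSB, AKR1B1, MRM3, HYAL3, BCS1L, STK11IP, ICAM2, SURF2, NR1D1, DFFB and TRMT1, with log2 ratios from −5.02 to −3.09. FOS (ENSG00000170345, chr14:75745529-75748933), an immediate-early transcription factor gene switched on within minutes of a stimulus, was 34.8-fold lower, at 12.9 CPM against 450 in the Green libraries and 224 in those of the benzene run. Hoechst libraries ran from 0 to 211 CPM with a median of 0, and Green libraries from 0.899 to 1642 with a median of 325. All 77 Hoechst libraries were below the Green median, and 30 of 48 Green libraries were above every Hoechst library. FOS was detected in 22 of 77 Hoechst, 46 of 48 Green and 17 of 30 benzene run Green libraries.

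ICAM2 (ENSG00000108622, chr17:62079954-62097994), an adhesion molecule of blood and endothelial cells, was at 6.84, 74.1 and 48.5 CPM and was detected in 18 of 77, 44 of 48 and 12 of 30 libraries. BCS1L, an assembly factor of respiratory complex III, was at 12.3, 143 and 64.99 CPM. The RNA methyltransferase genes TRMT1 (16.1, 145 and 110 CPM) and MRM3 (3.19, 48.5 and 26.9 CPM) were lower in the Hoechst run than in both Green groups. ALG12 rested on 1 Green library, which held 85.4% of its Green reads. CLP1 (5.20, 90.4 and 4.48 CPM) and NR1D1 (0.142, 9.32 and 0.170 CPM) were as low in the benzene run as in the Hoechst run. Of the 15 genes 13 were 2-fold or more lower than in the benzene run as well, where 11.8% of all genes were. These 15 too were picked by a ratio that holds the same Hoechst values, so this count is no separate support. HBD, for one, passed the detection filter through the Green libraries alone.

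K562 cells sit at the branch between the red cell and megakaryocyte lineages, and their globin, haem and membrane genes are commonly used to follow red cell maturation. Ratios of red cell genes were mostly below 0 in the Hoechst lot against the imatinib run, and less evenly so against the benzene run. Of 8 detected globin genes 4 were 2-fold or more lower and none higher, with a median log2 ratio of −0.99 beside 0.14 over all genes, and 1 of the 8 was lower than in the benzene run. That 1 was HBD, which passed the detection filter through the Green libraries alone. Without HBD 3 of 7 were lower and none higher (median −0.70). None of the 7 was 2-fold or more lower than in the benzene run (median −0.52). HBD, the delta globin gene (ENSG00000223609, chr11:5253908-5264887), was at 0.770 CPM in the Hoechst run, 29.8 in the Green libraries and 9.27 in the benzene run, and was detected in 4 of 77, 25 of 48 and 2 of 30 libraries. HBZ, embryonic zeta globin, was at 35.7, 198 and 51.7 CPM with library medians of 14.6 and 184 in the main comparison. The abundant HBG2 (1520, 2470 and 2902 CPM) and HBE1 (370, 472 and 734 CPM) were within 2-fold, although HBG1 and HBG2, like HBA1 and HBA2, are near-identical copies whose reads could be split between them.

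Among 23 detected red cell membrane genes 7 were 2-fold or more lower and 2 higher (median −0.50), against 6 lower and 6 higher beside the benzene run (median −0.22). EPB42 and RHCE passed the detection filter through the Green libraries alone. Without them 6 of 21 were lower and 2 higher (median −0.50), against 6 lower and 5 higher beside the benzene run (median −0.31). RHAG, the glycoprotein that the Rh complex needs to reach the membrane, was at 356 CPM against 1020 and 974 in the Green groups, and 71 of 77 Hoechst libraries were below the Green median. ADD2, beta adducin of the membrane skeleton, was at 37.97, 184 and 94.98 CPM. ERMAP, a blood group protein gene, was at 15.1, 86.8 and 20.6 CPM, so that its low level was shared with the benzene run. CD47, the signal that protects cells from phagocytosis, went the other way with 71.1, 22.1 and 22.5 CPM.

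Of 21 detected haem synthesis and iron genes 4 were 2-fold or more lower and 2 higher (median −0.28), a share of lower genes not far from the 13% of all genes, and 7 were lower and 6 higher against the benzene run (median −0.46). ALAS2, the red cell form of the first enzyme, was at 34.01 CPM in the Hoechst run, with a library median of 0, against 138 with a median of 84.6 in the Green libraries, and at 86.2 with a median of 0 in the benzene run. SLC25A38, which brings glycine into mitochondria for this step, was at 41.6, 100 and 103 CPM. GFI1B, a repressor needed for both lineages, was at 76.8, 218 and 176 CPM. Of 21 detected transcription factors 7 were 2-fold or more higher, beside 20.7% of all genes. GFI1B alone was 2-fold or more lower, and LDB1 was at a log2 ratio of −0.94. Against the benzene run 9 were higher and 2 lower, beside 28.1% and 11.8% of all genes. The 2 were GFI1B and NFE2L2 (94.1, 94.8 and 364 CPM). HHEX was at 96.7, 14.3 and 60.9 CPM, LYL1 at 24.5, 7.54 and 11.3 and RUNX1 at 46.5, 20.6 and 24.1.

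**Figure D3:**
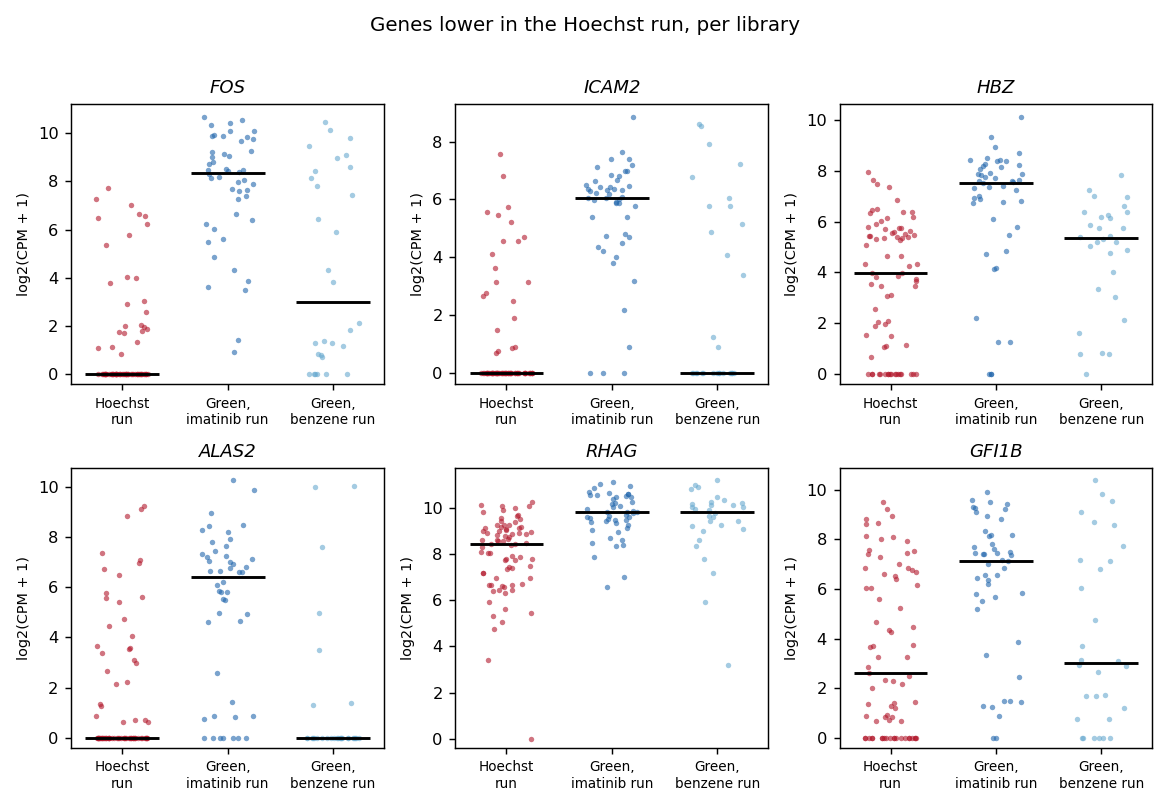
Each point is 1 library, with its log2(CPM + 1) on the vertical axis and its group on the horizontal axis; black lines are group medians. FOS, ICAM2 and ALAS2 have a median of 0 in the Hoechst run, ICAM2 and ALAS2 also in the benzene run, while RHAG is present in 76 of 77 Hoechst libraries at a lower level than in both Green groups.

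Membrane and signalling genes of blood cells came next. Of 22 detected haematopoietic membrane and signalling genes 11 were 2-fold or more higher and none lower (median 1.07), and the median against the benzene run was 1.09. Of these, VAV1, WAS, PTPN6, INPP5D and CD44 passed the filter through the Hoechst run alone, and LAPTM5 is a marker. Without these 6 the counts were 5 higher and none lower of 16, with medians of 0.75 and 0.55. Beside LAPTM5 and CD44 these included INPP5D, the SHIP1 phosphatase (38.1, 3.08 and 9.88 CPM), LCP2, an adaptor of antigen receptor signalling (29.9, 3.67 and 9.85), and CD52 (127, 12.9 and 103). The pan-leukocyte gene PTPRC was within 2-fold with a log2 ratio of 0.30. Of 17 lymphocyte genes 3 passed the filter, of which 1 did so through both groups. This was CD3D, a T cell receptor subunit, which was at 131, 9.53 and 41.3 CPM and was detected in 63 of 77, 14 of 48 and 11 of 30 libraries. CD3E, CD2 and CD4 did not pass it. Of 26 megakaryocyte genes only 5 passed, with ITGA2B at 56.2, 1.44 and 8.32 CPM in 28 of 77 Hoechst libraries, and GP9, PF4 and ITGB3 did not.

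Imprinted genes are expressed from 1 parental copy, and several control fetal growth. Of 17 detected members 9 were 2-fold or more higher and none lower, with a median of 1.36 against the imatinib run and 0.99 against the benzene run, while the 2 Green groups differed by a median of 0.05. The 9 include the marker DLK1, and H19, SLC22A18, L3MBTL1 and PHLDA2, of which PHLDA2 was within 2-fold, passed the filter through the Hoechst run alone. Over the 12 other members 5 were higher and none lower, with a median of 0.77, and against the benzene run 4 were higher and 1 lower, with a median of 0.24 beside 0.26 over all genes detected in both groups. H19, a growth-restraining long non-coding RNA (ENSG00000130600, chr11:2016396-2025782), was at 82.4, 1.94 and 2.31 CPM. Its Hoechst values ran from 0 to 527 with a median of 31.9, and 60 of 77 Hoechst libraries detected it against 4 of 48 and 3 of 30. In the same imprinted region of chromosome 11, CDKN1C, the cell cycle inhibitor p57, was at 73.1, 13.4 and 11.04 CPM, and the antisense RNA KCNQ1OT1 was at 227, 61.1 and 35.4. KCNQ1OT1 lies within KCNQ1 on the other strand, and their reads cannot be told apart. L3MBTL1 was at 24.1, 2.55 and 2.68 CPM but was detected in 21 of 77 Hoechst libraries. MEG3, the partner of DLK1 in its imprinted locus, and IGF2, the partner of H19, did not pass the filter.

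DLK1 belongs to the Notch pathway, in which a receptor cut at the membrane sends its inner part to the nucleus to act with RBPJ on targets such as HES1. Of 16 detected Notch genes 10 were 2-fold or more higher and none lower (median 1.22 against the imatinib run, 1.25 against the benzene run and −0.20 between the Green groups). Without DLK1 and with members detected in both groups, which leaves out NOTCH1, HEY1 and DLL3, 7 of 12 were higher and none lower (medians 1.03 and 1.25). The target HES1 was at 47.7, 3.82 and 9.51 CPM, and 49 of 77 Hoechst libraries were above every Green one. The receptor NOTCH1 was at 11.1, 2.23 and 1.14 CPM, the target NRARP at 7.32, 2.04 and 0.608, and the sheddase ADAM10 at 118, 43.4 and 55.6. RBPJ itself (log2 ratio 0.23) and the gamma-secretase gene NCSTN (−0.04) were within 2-fold. The other families of the markers had few detected members. Of the creatine genes only SLC6A8 was 2-fold or more higher among 4 detected. EPHB6 and EFNA4 were higher among 3 detected Eph and ephrin genes, but both passed the filter through the Hoechst run alone. EPHB4, which was detected in both groups, had a log2 ratio of −0.27. Of 28 GABA receptor and transporter genes 4 were detected, with GABRE and GABBR1 (91.5, 28.3 and 41.3 CPM) higher and GABRG3 lower.

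Genes of sterol and fatty acid synthesis were higher, with 17 of 26 detected members past 2-fold and PMVK alone lower (median 1.30). INSIG1, the sterol-sensing partner that is itself a target of SREBP, was at 304, 23.9 and 81.9 CPM. The enzymes HMGCS1 (233, 24.4 and 42.4 CPM), MSMO1 (151, 15.2 and 46.2) and SQLE (295, 51.2 and 95.1) and the regulator SREBF2 (222, 28.6 and 73.6) were also higher. All 77 Hoechst libraries had more INSIG1 than the Green median, and its lowest Hoechst library was at 35.9 CPM. Part of this set was shared with the benzene run, against which the median was 0.60 with 11 members higher and 2 lower, and FDFT1 and FADS1 were at 1037 and 1154 CPM there against 921 and 1633 in the Hoechst run. Hypoxia targets gave 9 of 13 detected members higher and none lower (median 1.12, and 1.31 against the benzene run). VEGFA, the angiogenic factor, was at 132, 5.91 and 47.7 CPM and P4HA1, a collagen prolyl hydroxylase, at 198, 24.03 and 44.6.

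BCR-ABL signalling genes and targets were level or higher against the imatinib run. Of 29 detected members 11 were 2-fold or more higher and none lower (median 0.79). Against the benzene run 11 were higher and 2 lower (median 0.82). Between the Green groups 9 were higher and 5 lower in the benzene run, so many members also differed between runs of one passage label. Over the 27 members detected in both groups 9 were higher and none lower than in the imatinib run (median 0.78). PIM1, a kinase gene induced through STAT5, was at 486, 51.8 and 182 CPM, and 66 of 77 Hoechst libraries were above every Green library. CCND1, which passed the filter through the Hoechst run alone, was at 16.6, 1.37 and 0.973 CPM and was detected in 23 of 77 Hoechst libraries. BCR and ABL1 themselves were within 2-fold (−0.34 and 0.47). Among 19 apoptosis regulators 9 were higher and 2 lower, and 6 were higher and 2 lower against the benzene run (medians 0.90 and 0.66). Of all genes 20.7% were higher than in the imatinib run and 28.1% than in the benzene run, and 6 of 19 lies near the latter. Over the 18 members detected in both groups 8 and 5 were higher, beside 17.8% and 25.5% of all such genes. BAX was at 24.2, 6.42 and 4.84 CPM and BBC3, which passed the filter through the Hoechst run alone, at 10.6, 2.35 and 0.754. Lower were BAK1, which like BAX promotes cell death (9.13, 35.2 and 30.8 CPM), and the inhibitor BIRC5, known as survivin (111, 307 and 323 CPM).

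Immediate-early genes did not move as a set, with a median of −0.01 over 16 detected members. FOS, its close relative FOSB (2.22, 40.3 and 17.97 CPM) and the phosphatase gene DUSP1 (16.97, 70.1 and 53.8) were lower, while JUND (90.9, 24.1 and 15.1) and IER5 (45.2, 8.96 and 9.07) were higher. EGR1 was within 2-fold (−0.23).

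Cancer-testis genes, which are silent in most adult tissues and active in K562, were lower in 11 of 20 detected members and higher in 1 (median −1.18). Against the benzene run 6 were lower and 3 higher (median −0.62), and between the Green groups the median was −0.64, so that the runs of one passage label differed by a similar median. Over the 16 members detected in both groups 10 were lower and 1 higher than in the imatinib run. SSX1 was at 95.4, 309 and 279 CPM and was detected in 54 of 77, 47 of 48 and 29 of 30 libraries. MAGEC2 was at 63.8, 167 and 156 CPM, and SSX2 at 3.47, 26.98 and 17.1. MAGEA1 (47.4, 89.1 and 15.1 CPM) and MAGEC1 (26.9, 86.5 and 14.7 CPM) lay between the Green groups, and CTAG2 was higher at 21.8, 7.09 and 4.01 CPM. Members such as MAGEA3 and MAGEA6, or SSX2 and its copies, are near-identical, so that their single values are uncertain.

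Proteasome subunits were lower as a set: 13 of 30 were 2-fold or more lower and none higher (median −0.91, −0.80 against the benzene run and −0.08 between the Green groups). PSMD11 was at 203, 675 and 576 CPM and PSMB2 at 148, 464 and 464. Only PSMA1 had a log2 ratio above 0. NRF2 antioxidant genes had 7 of 22 members lower and 1 higher (median −0.70), with NQO1 at 46.8, 180 and 211 CPM. Ribosomal protein genes (median 0.05 over 77) and nuclear-encoded respiratory chain genes (−0.09 over 71) were level.

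For some lists the difference from the imatinib run did not hold against the benzene run. ATF4 targets, the amino acid stress genes, had 11 of 23 members 2-fold or more higher than in the imatinib run and none lower (median 1.00), yet 1 higher and 11 lower than in the benzene run (median −0.94). TRIB3 was at 274, 63.8 and 810 CPM and ASNS at 434, 105 and 1116, so that the Hoechst lot lay between the Green groups. Heat-shock genes had 7 of 28 members lower and 1 higher (median −0.39), against a median of 0.16 for the benzene run. The chaperone HSPA8 was at 988, 4964 and 1142 CPM, with only the imatinib run high. Cell cycle lists were of the same kind. Of 34 G1/S and replication genes 8 were lower and 1 higher (median −0.35), and of 34 G2/M genes 10 were higher and 1 lower (median 0.38), but against the benzene run the medians were 0.07 and −0.01.

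**Figure D4:**
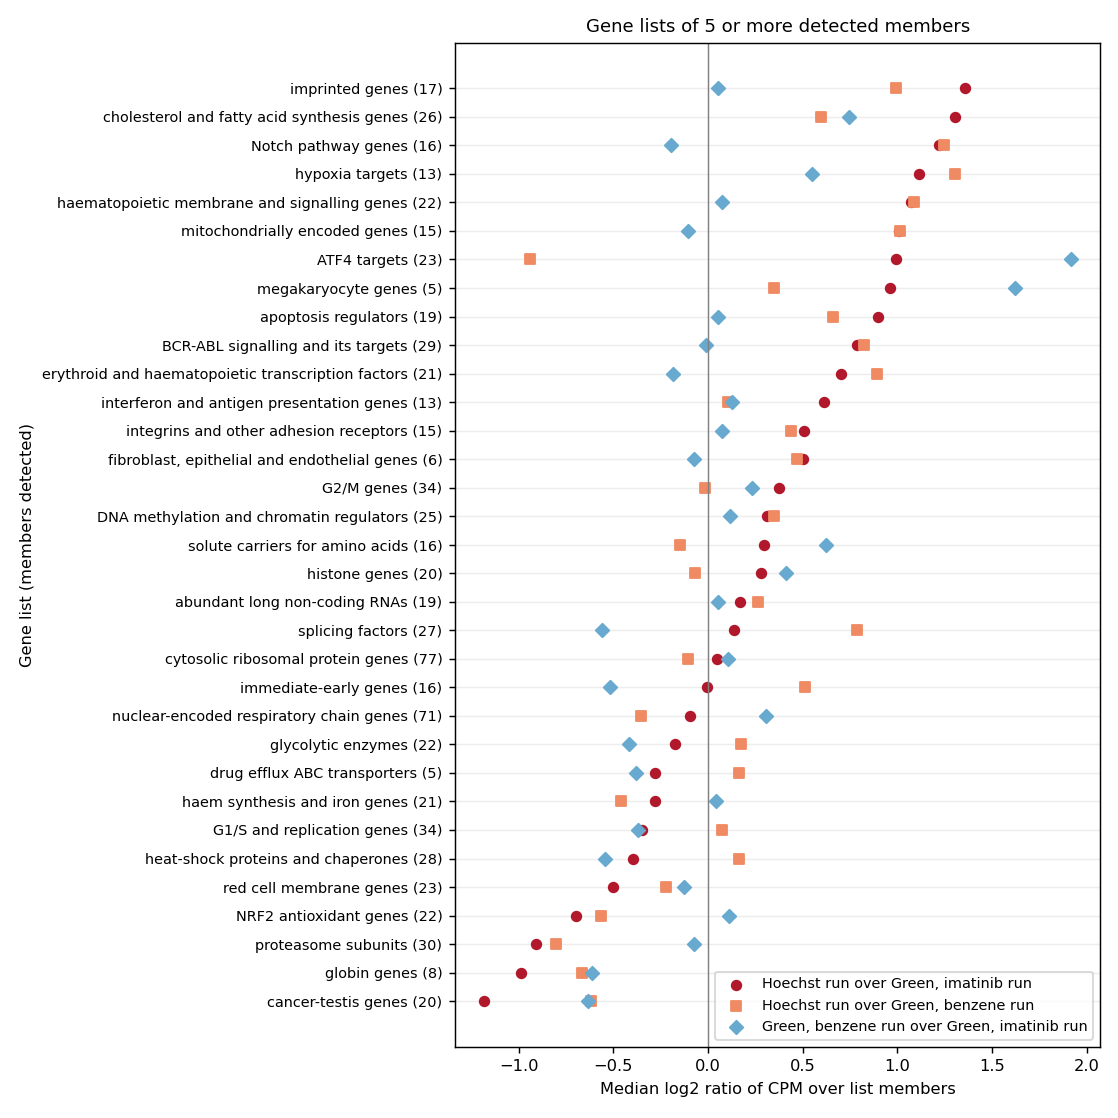
The horizontal axis gives the median log2 ratio over the detected members of each gene list (number in parentheses) for the Hoechst run over the Green libraries of the imatinib run (circles), over those of the benzene run (squares) and between the Green groups (diamonds). Imprinted, Notch and haematopoietic membrane genes lie near 1 in both Hoechst comparisons and near 0 between the Green groups, proteasome subunits lie below 0 in the same way, and ATF4 targets do not keep their sign. Members that passed the detection filter through 1 group only are included, as are the markers DLK1 and LAPTM5, which were picked from these libraries. Without both kinds the medians against the imatinib and benzene runs were 0.77 and 0.24 for imprinted genes. They were 0.75 and 0.55 for haematopoietic membrane genes and 1.03 and 1.25 for Notch genes. All genes detected in both groups had medians of 0.12 and 0.26. A median near 0 does not mean that members were level. Between the Green groups 6 of 22 haematopoietic membrane genes were 2-fold or more higher in the benzene run and 4 lower. The counts were 2 and 3 of 16 for Notch genes and 3 and 1 of 17 for imprinted genes.

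Signs of RNA content and composition moved with the lot, and their part in the differences above was not tested. Mitochondrially encoded genes had a median of 1.01 in both Hoechst comparisons. The nuclear-retained RNAs MALAT1 (8095, 1151 and 1562 CPM) and NEAT1 (1460, 378 and 270 CPM) were higher, and all 77 Hoechst libraries had more MALAT1 than the Green median. Without the 10 Hoechst libraries above 20% mitochondrial reads the median of all genes stayed at 0.14, and 2171 of the 2360 higher and 1365 of the 1475 lower genes were past 2-fold.

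Protein-coding genes with AT-rich transcripts had higher ratios, with a median of 0.49 in the quintile with the lowest GC content (29.2 to 39.9%) and −0.13 in the fourth quintile (50.02 to 56.8%), and 0.15 in the highest. The median went from −0.06 in the quintile with the shortest transcripts to 0.39 in the quintile with the longest, and from 0.50 in the quintile with the lowest level to −0.20 in that with the highest. Between the Green groups the GC quintiles ran from −0.05 to −0.40. After the median of genes of like GC content and length was taken away, 1729 of the 2360 higher genes and 1234 of the 1475 lower genes were still past 2-fold. The list medians on this scale were 1.26 for imprinted genes, 1.23 for hypoxia targets, 1.06 for sterol synthesis and 0.88 for Notch genes, and −0.84 for proteasome subunits and −0.94 for cancer-testis genes. Those of imprinted and Notch genes include the marker DLK1 and members that passed the filter through the Hoechst run alone. Without the correction, the other members detected in both groups had medians of 0.77 and 1.03, and these were not taken on the corrected scale.

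**Figure D5:**
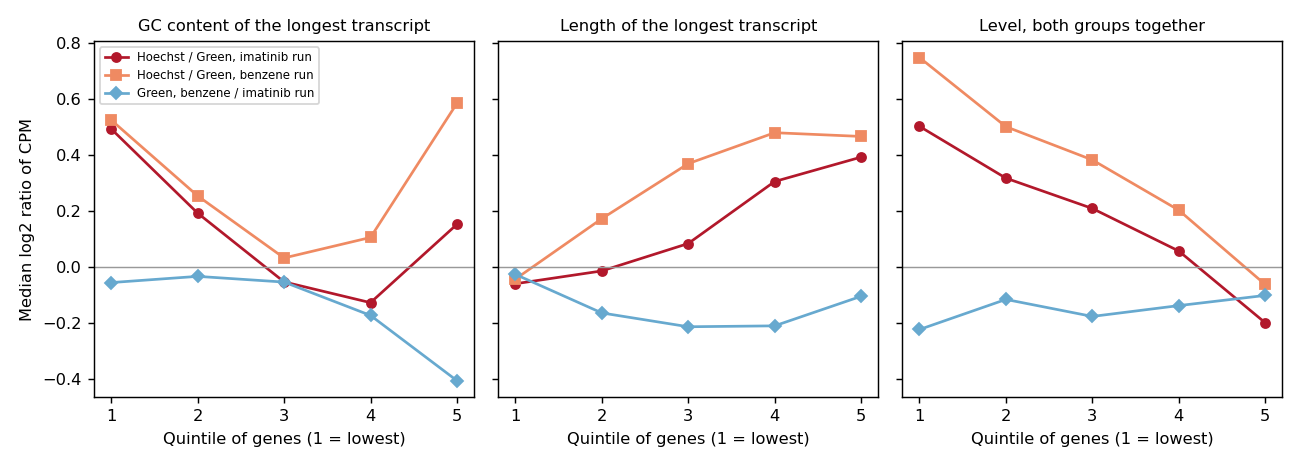
Each panel sorts protein-coding genes into quintiles, by GC content of the longest transcript, by its length or by level, and gives the median log2 ratio per quintile for the 3 comparisons. The Hoechst run over the imatinib run Green libraries goes from 0.49 to 0.15 over GC quintiles with its lowest value, −0.13, in the fourth, and from −0.06 to 0.39 over length quintiles.

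No chromosome stood apart. Medians over protein-coding genes lay between −0.08 on chromosome 17 and 0.45 on chromosome 13, and the mitochondrial genome was at 1.01 over 13 genes. In windows of 25 neighbouring genes the median ranged from −0.95 to 1.00 and no window was past 2-fold. The highest window was chr15:51200869-59389618, from AP4E1 to RNF111, with 23 of 25 genes above 0 and a median GC content of 39.02%. The lowest was chr2:27353624-30867091, from PREB to LCLAT1, at 49.4% GC. Windows of higher GC content had lower medians (Spearman coefficient −0.51 over 8776 overlapping windows, a description across windows that share genes).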

How the data were processed

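Single-cell RNA-seq libraries were read from the table of counts that the authors deposited. According to the paper's methods, they trimmed reads, aligned them with HISAT2 to GRCh37 with the ERCC spike-in sequences added, and counted uniquely mapped reads per Ensembl gene with featureCounts, and the submitters' notes name Subread 1.5.0 and Picard 1.92. Whether reads were counted by strand is not given in the sources used here. ERCC rows were left out of totals, and their median share was 5.59% in the Hoechst run and 7.85% in the Green libraries. In the table, 4 columns matched no sample title and were not used, and 4 samples had no column. The authors' CPM table was not used, and no CPM or fold column of theirs is printed.

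Groups were taken from the labels. Counts of the kept libraries were summed per group, 98661401 reads in the Hoechst run and 59683252 in the Green libraries, and divided by the total to give CPM (per 1000000 reads on genes). The log2 ratio was taken after adding 1 CPM, which understates the difference of low genes. Genes were tested for size only, past 2-fold or 4-fold, among those that 20% or more of the libraries of one of these groups detected, so that a gene found only in the benzene run is not counted. There is no test, since each group is 1 batch of cells. Poisson and binomial intervals are exact and cover counting error only, since reads carry no molecular identifiers. No doublet caller was run. Libraries of empty sites, of several cells or of bulk samples can be left out only by the limits on genes and on top genes. No pair of libraries had identical counts.

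Names and GRCh37 positions came from GENCODE v44lift37, in which 55665 of 63677 gene identifiers were found (99.0% of reads). Promoters came from RefSeq on GRCh38.p14. The members, the markers, the gene lists and the alternatives were chosen with earlier results of these data known. Named genes were the 4 markers, the 15 protein-coding genes highest and the 15 lowest by ratio, the 2 highest and 2 lowest members past 2-fold of each list, and the genes at the ends of the window ranking. Further list members are named as examples and were chosen after their values were seen. The alternatives were another pseudocount, weights, scales, filters, comparators and depth, and, added after seeing the data, a correction for GC content and transcript length and a filter that asks for detection in both groups and leaves out the markers. The ratios were tested on simulated data. Python 3.11.15, numpy 2.4.6, pandas 2.3.3, scipy 1.17.1, matplotlib 3.10.9 and R 4.3.3 with edgeR 4.0.16 and DESeq2 1.42.0 (scaling factors only) were used.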

Additional observations from a re-analysis of the deposited data

Results flagged for a closer look

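The libraries with 10000 or more detected genes, left out of the comparison, were 5 in the Hoechst run and 2 among the Green libraries of the imatinib run, and the labels do not say what they hold. Whether they are bulk samples, which the study also sequenced, was not tested. For 3 of the 4 markers every one of these 5 was above both of these 2. LAPTM5 was at 304 CPM in the 5 summed (174.6 to 574) against 55.9 in the 2 (40.6 to 69.3). DLK1 was at 307 CPM (162 to 408) against 33.9 (22.9 to 46.3), and GABRE was at 103 CPM (33.5 to 158) against 9.51 (8.95 to 10.1). SLC6A8 was at 86.7 CPM (33.5 to 139) against 30.9 (8.39 to 56.5) and overlapped.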

How the results depend on the processing

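Each lot is 1 batch of cells, so none of these values carries a test, and the spread between libraries does not stand for the spread between batches. No paired analysis was possible because the result comes from no test. Depth limits the detection of low genes, and a gene without reads in a group is limited only to less than 3 reads over that group. Of 1904 values of 119 named genes under all alternatives, 1820 stayed within the spread between libraries, 74 moved by more and 10 changed sign. Of 662 medians of 39 gene lists, 644 stayed within the spread, 17 moved and 1 changed sign. In both counts a change of sign was counted only where the value in the report was 2-fold or more. Smaller values that changed sign are among the others, as for the medians of ATF4 targets (0.996 in the report), heat-shock genes and splicing factors given below. The spread is a standard deviation between single libraries and is wide, so sizeable shifts were counted as within it. With genes detected in both groups and no marker, integrins and other adhesion receptors went from a median of 0.51 to −0.15. Imprinted genes went from 1.36 to 0.77 there. Neither was counted as moved. The detection of LAPTM5, DLK1, GABRE and SLC6A8 stayed within 1.5 times under limits of 1 and 10 reads and after thinning. The cause of each change below was not tested unless the setting itself shows it.

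A pseudocount of 10 CPM shrinks the ratios of low genes, and left 1085 genes higher and 742 lower at 2-fold (2360 and 1475 in the report) and 82 and 44 at 4-fold (542 and 200). Averaging log2(CPM + 1) over libraries, which gives each library equal weight, gave 1181 higher and 2554 lower at 2-fold and 208 and 684 at 4-fold. On that scale the medians were 0.52 for Notch genes, 0.81 for lymphocyte genes, −0.998 for heat-shock genes and −0.20 for splicing factors (0.14 with totals). Chromosome medians then ran from −0.44 to 0.044 and windows from −1.43 to 0.68. Chromosome medians ran from −0.23 to 0.31 with TMM factors and from −0.30 to 0.24 with DESeq2 size factors, which also gave 301 genes lower at 4-fold.

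Without a detection filter more genes were counted, 4183 higher and 2294 lower at 2-fold and 972 and 349 at 4-fold. The undetected members then brought list medians near 0, to 0.022 for Eph and ephrin genes, 0.27 for Notch, −0.17 for cancer-testis, 0.071 for imprinted and 0.015 for lymphocyte genes, with a highest chromosome median of 0.019 and a lowest window of −0.49. Asking for detection in 50% of libraries left 1330 genes higher at 2-fold and 241 at 4-fold, a median of 1.99 for GABA genes and a lowest chromosome median of −0.28.

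With the benzene run Green libraries as the comparator, also in the filter, 1002 genes were higher at 4-fold, and the medians were −0.94 for ATF4 targets, 0.60 for sterol synthesis, 2.75 for creatine genes, 0.16 for heat-shock genes and 0.79 for splicing factors. The lowest chromosome median was 0.11 and the highest window 1.31. There ALDH1L2 (−0.20), CBX2 (1.62), CKMT1B (0.11), CLP1 (0.18), HSPA1B (0.38), SLC7A8 (2.75), SNHG12 (0.26) and SRGN (−0.73) changed sign. With the imatinib run Orange libraries, which carry the imatinib label, ALG12 (0.21) and CKMT1B (0.11) did so, and immediate-early genes had a median of 1.03. ALG12 went from −3.84 to −1.62 without its library with the most reads. The GC and length correction, added after seeing the data, put splicing factors at −0.21. Keeping only genes detected in both groups and no marker, also added after seeing the data, left 261 genes higher and 116 lower at 4-fold, and Eph and ephrin genes with 1 member, at −0.27.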

Other observations

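In the same 5 Hoechst libraries with 10000 or more genes, CD44, which was found in 34 of the 77 kept libraries, was detected in all 5, between 31.95 and 59.3 CPM, against 1.27 and 1.68 CPM in the 2 of the imatinib run. H19 was between 6.28 and 34.4 CPM against 1.12 and 2.54, and EPHB6 between 11.9 and 47.3 against 1.27 and 9.51. The lower genes kept their side there as well. FOS was between 4.03 and 46.7 CPM against 199.6 and 366, and ICAM2 between 7.64 and 15.98 against 41.2 and 110.7. RHAG, at 206 to 1471 CPM against 618 and 1036, overlapped. FOS was not always high in passage 20 to 22 cells: the only benzene run Green library of this kind was at 9.45 CPM, and the 2 of the imatinib Orange arm were at 1.37 and 19.5.

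The 14 Hoechst libraries left out for their top genes had a median of 78.2% mitochondrial reads and 2012 detected genes. LAPTM5 was detected in 9 of them and DLK1 in 7, against 77 of 77 kept libraries for each.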
